A study of Mus musculus with 28 samples.

Results

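The Dlx genes (Dlx1, Dlx2, Dlx3, Dlx4, Dlx5 and Dlx6) are the 6 mouse relatives of the fly gene Distal-less. All 6 were found by symbol among the 55536 genes of the count files, of which 33440 had a count in any of the 28 libraries. The libraries are bulk RNA-seq of cells sorted from interfollicular epidermis (IFE), the skin surface between hair follicles, of wild-type mice that carry an inducible Cre (CreER) under the name of 1 gene and the tdTomato reporter at the Rosa locus. All mice received tamoxifen at 100 ug/ml on 5 days in a row, from postnatal day 30 to 34. Skin was collected at postnatal day 49, after 2 weeks, in telogen, the resting phase of the hair cycle.

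Tail skin gave 12 libraries, with 2 each of Dlx1+ cells and the total IFE of that line, Slc1a3+ cells and their total, and Aspm+ cells and their total. Back skin gave 16 libraries, with 3 each of Slc1a3+ cells, their total, Aspm+ cells and their total, and 2 each of K14+ cells (K14 is the basal keratin gene Krt14) and their total. Positive cells came from gate P6 and total IFE from gate P5. The labels give no promoter structure for the CreER lines beyond the gene name, and no Dlx1 line from back skin and no K14 line from tail skin was analysed here. Whether the libraries of a group are from different animals is not stated there, and p-values thus cover only the variation among these libraries, which may be technical.

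Dlx proteins are transcription factors that bind DNA through a homeodomain. The genes lie in pairs that are transcribed towards each other and share enhancers, and they pattern the jaws, limbs, teeth and forebrain. In skin, Dlx3 is the best studied member. It acts downstream of p63 and BMP signals in keratinocyte differentiation and in the hair follicle, and human DLX3 mutations alter hair, teeth and bone.

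In these cells 5 of the 6 genes followed the body site. Dlx1, Dlx2, Dlx3, Dlx4 and Dlx5 were each higher in every tail library than in every back library, as were 5.93% of the 17493 genes tested. By the test used here 46.2% of genes passed for site in total IFE and 22.5% rose. The fold in total IFE ran from 10.3 for Dlx5 to 72.5 for Dlx3, while Dlx6 was near 0 at both sites. Within tail skin the cells labelled through Dlx1 did not stand out for Dlx1 or for any other member in the fit of all libraries. Their label was set before the skin was collected, and total IFE is not stated to exclude them, so an enrichment could be missed.

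The homeobox is shown because it is what makes these 6 genes a family, and because alike sequences could share reads. The stretch is the 60 codons most alike among the longest coding sequences of GENCODE M21 (GRCm38), and it spans the homeodomain. The codons run from 126 to 185 in Dlx1, 153 to 212 in Dlx2, 127 to 186 in Dlx3, 114 to 173 in Dlx4, 135 to 194 in Dlx5 and 169 to 228 in Dlx6. Capitals mark the 86 of 180 bases that are not the same in all 6 genes.
Dlx1: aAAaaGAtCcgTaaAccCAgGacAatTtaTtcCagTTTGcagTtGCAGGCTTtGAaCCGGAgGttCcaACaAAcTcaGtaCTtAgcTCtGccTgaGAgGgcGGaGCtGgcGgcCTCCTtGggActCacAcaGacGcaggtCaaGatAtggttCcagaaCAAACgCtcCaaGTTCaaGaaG
Dlx2: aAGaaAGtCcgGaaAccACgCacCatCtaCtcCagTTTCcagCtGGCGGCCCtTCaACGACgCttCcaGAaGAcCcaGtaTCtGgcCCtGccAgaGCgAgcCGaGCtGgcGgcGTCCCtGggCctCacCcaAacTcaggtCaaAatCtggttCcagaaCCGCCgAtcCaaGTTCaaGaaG
Dlx3: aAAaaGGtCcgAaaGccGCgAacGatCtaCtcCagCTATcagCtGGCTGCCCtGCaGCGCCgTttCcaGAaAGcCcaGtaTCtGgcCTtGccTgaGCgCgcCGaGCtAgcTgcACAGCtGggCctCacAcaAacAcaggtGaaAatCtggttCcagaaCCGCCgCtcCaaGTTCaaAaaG
Dlx4: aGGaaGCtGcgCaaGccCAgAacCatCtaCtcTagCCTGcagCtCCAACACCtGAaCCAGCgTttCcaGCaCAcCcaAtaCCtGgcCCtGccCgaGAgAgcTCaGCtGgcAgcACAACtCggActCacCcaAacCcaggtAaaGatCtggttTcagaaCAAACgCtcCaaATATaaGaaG
Dlx5: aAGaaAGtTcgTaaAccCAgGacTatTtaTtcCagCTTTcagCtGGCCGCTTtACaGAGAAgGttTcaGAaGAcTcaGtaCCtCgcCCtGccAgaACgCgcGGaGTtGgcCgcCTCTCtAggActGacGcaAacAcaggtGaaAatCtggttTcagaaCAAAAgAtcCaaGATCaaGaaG
Dlx6: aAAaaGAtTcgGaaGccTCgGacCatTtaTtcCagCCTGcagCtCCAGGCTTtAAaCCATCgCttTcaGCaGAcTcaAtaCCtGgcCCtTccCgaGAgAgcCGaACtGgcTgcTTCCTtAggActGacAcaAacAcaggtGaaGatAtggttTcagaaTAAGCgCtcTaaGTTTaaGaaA
The encoded amino acids were the same at 47 of 60 positions in all 6. Dlx1 and Dlx6 shared 98.3% of them, and Dlx2 and Dlx5 shared 96.7%, so the closest proteins are not partners in a pair. In bases the identity of the 15 pairs ran from 67.2% (Dlx4 with Dlx5) to 82.8% (Dlx2 with Dlx3). Over whole transcripts the longest identical run of any 2 members was 36 bases, between Dlx1 and Dlx6, and each of the other pairs reached at most 23 bases.

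The genes sit on 3 chromosomes of GRCm38. Dlx1 (ENSMUSG00000041911) lies at chr2:71528113-71533981 on the plus strand and Dlx2 (ENSMUSG00000023391) at chr2:71543408-71546754 on the minus strand, 9.4 kb apart. Dlx3 (ENSMUSG00000001510) lies at chr11:95120119-95125296 on the plus strand and Dlx4 (ENSMUSG00000020871) at chr11:95140447-95146263 on the minus strand, 15.2 kb apart. Dlx6 (ENSMUSG00000029754) lies at chr6:6863334-6868568 on the plus strand and Dlx5 (ENSMUSG00000029755) at chr6:6877805-6882085 on the minus strand, 9.2 kb apart. The libraries were made without strand marking, and 6.2% of the exon bases of Dlx1, 2.4% of Dlx4 and 4.4% of Dlx6 overlap a gene on the other strand (Dlx1as, Dlx4os, and Dlx6os1 with Dlx6os2). Reads in those stretches cannot be told apart by gene.

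RefSeq's promoter table (GRCm38.p6, from 250 bases before to 50 after the start) matched 2 of the 6 members, the Dlx1 and Dlx2 pair. They are shown because both genes rose in tail epidermis. The whole Dlx1 window lies inside the Dlx1 span given above, which begins at 71528113. It is thus not the region before the outermost start of Dlx1 in GENCODE M21. Capitals mark every match, on either strand, to the E-box CACGTG, the box named CCAAT, the GC box GGGCGG, the homeodomain core TAATT or the box named TATAAA. No match overlaps another.
Dlx1, chr2:71529195-71529494, plus strand: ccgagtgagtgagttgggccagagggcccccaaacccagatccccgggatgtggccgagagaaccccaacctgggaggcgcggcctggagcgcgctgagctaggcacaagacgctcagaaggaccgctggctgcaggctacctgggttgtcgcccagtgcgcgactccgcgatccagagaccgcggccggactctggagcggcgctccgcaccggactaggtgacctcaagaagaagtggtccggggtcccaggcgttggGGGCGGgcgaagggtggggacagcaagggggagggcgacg
Dlx2, chr2:71546705-71547004, minus strand: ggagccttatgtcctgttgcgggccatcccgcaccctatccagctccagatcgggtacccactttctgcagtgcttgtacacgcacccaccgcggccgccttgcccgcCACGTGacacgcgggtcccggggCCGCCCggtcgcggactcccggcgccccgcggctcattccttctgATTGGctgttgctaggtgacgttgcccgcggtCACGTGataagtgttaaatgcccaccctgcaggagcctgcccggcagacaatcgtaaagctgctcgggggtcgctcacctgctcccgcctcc
Both windows are rich in GC, at 69.3% for Dlx1 and 66.3% for Dlx2 against a median of 52.7% over 32851 promoters, with 27 and 29 CpG sites against a median of 7. Dlx1 held 1 GC box, which 35.7% of promoters hold. Dlx2 held 2 E-boxes, found in 7.2% of promoters, with 1 CCAAT box (37.4%) and 1 GC box. Neither held TAATT (27% of promoters) or TATAAA (13.6%).

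The libraries held 7738262 to 37670589 counts (median 20193387.5). The back Slc1a3 total replicate 4 stood apart with 14436 genes detected, against 18375 to 22500 in the others. The markers of basal keratinocytes (Krt5, Krt14, Itga6, Itgb4, Col17a1 and Krt15) summed to 65300 to 118000 CPM in tail and 54100 to 86000 CPM in back libraries. Levels are CPM, counts scaled to library size by TMM. In bulk samples, fewer cells of a type and less RNA per cell cannot be told apart.

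Dlx1, the gene that names a tail line, ran from 7.15 to 12.1 CPM in the 12 tail libraries with a median of 8.84, against 0 to 2.94 CPM in the 16 back libraries with a median of 0.15. Its back maximum came from the library that stands apart, with 23 counts, and the next back library had 0.685 CPM. The highest tail library had 1.69 times the level of the lowest, and most back libraries were at or near 0. Bulk libraries do not show how the level varies among cells or over the skin. Dlx2, its partner, ran from 6.82 to 21.6 CPM in tail libraries with a median of 15.3, against 0 to 1.14 CPM in back libraries with a median of 0.323. The pair did not overlap between sites in any library.

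Dlx3, the epidermal differentiation factor, ran from 12.3 to 60.8 CPM in tail libraries with a median of 31.1, against 0 to 1.32 CPM in back libraries with a median of 0.369. Dlx4, its partner and the least studied member, ran from 7.16 to 15.7 CPM in tail libraries with a median of 9.74, against 0 to 1.19 CPM in back libraries with a median of 0.767. Both were separated by site, and Dlx3 had the widest range among the tail libraries.

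Dlx5, a BMP-responsive regulator of bone and limb, ran from 22.6 to 35.4 CPM in tail libraries with a median of 29.4, against 1.35 to 5.65 CPM in back libraries with a median of 2.33. It was the only member with counts in all 28 libraries at more than 1 CPM. Dlx6, its partner, had 48 counts in all 28 libraries together, 44 in tail libraries and 4 in back libraries, and 23 of them came from the tail Dlx1 total replicate 1. It ran from 0 to 0.809 CPM in tail libraries, with 3 of 12 at 0, and from 0 to 0.145 CPM in back libraries, with 14 of 16 at 0. Its groups overlapped, and it did not pass the filter on low counts, so it was not tested. The Dlx5 and Dlx6 pair was thus uneven at both sites, whereas both members of the other pairs were present in tail skin.

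**Figure D1:**
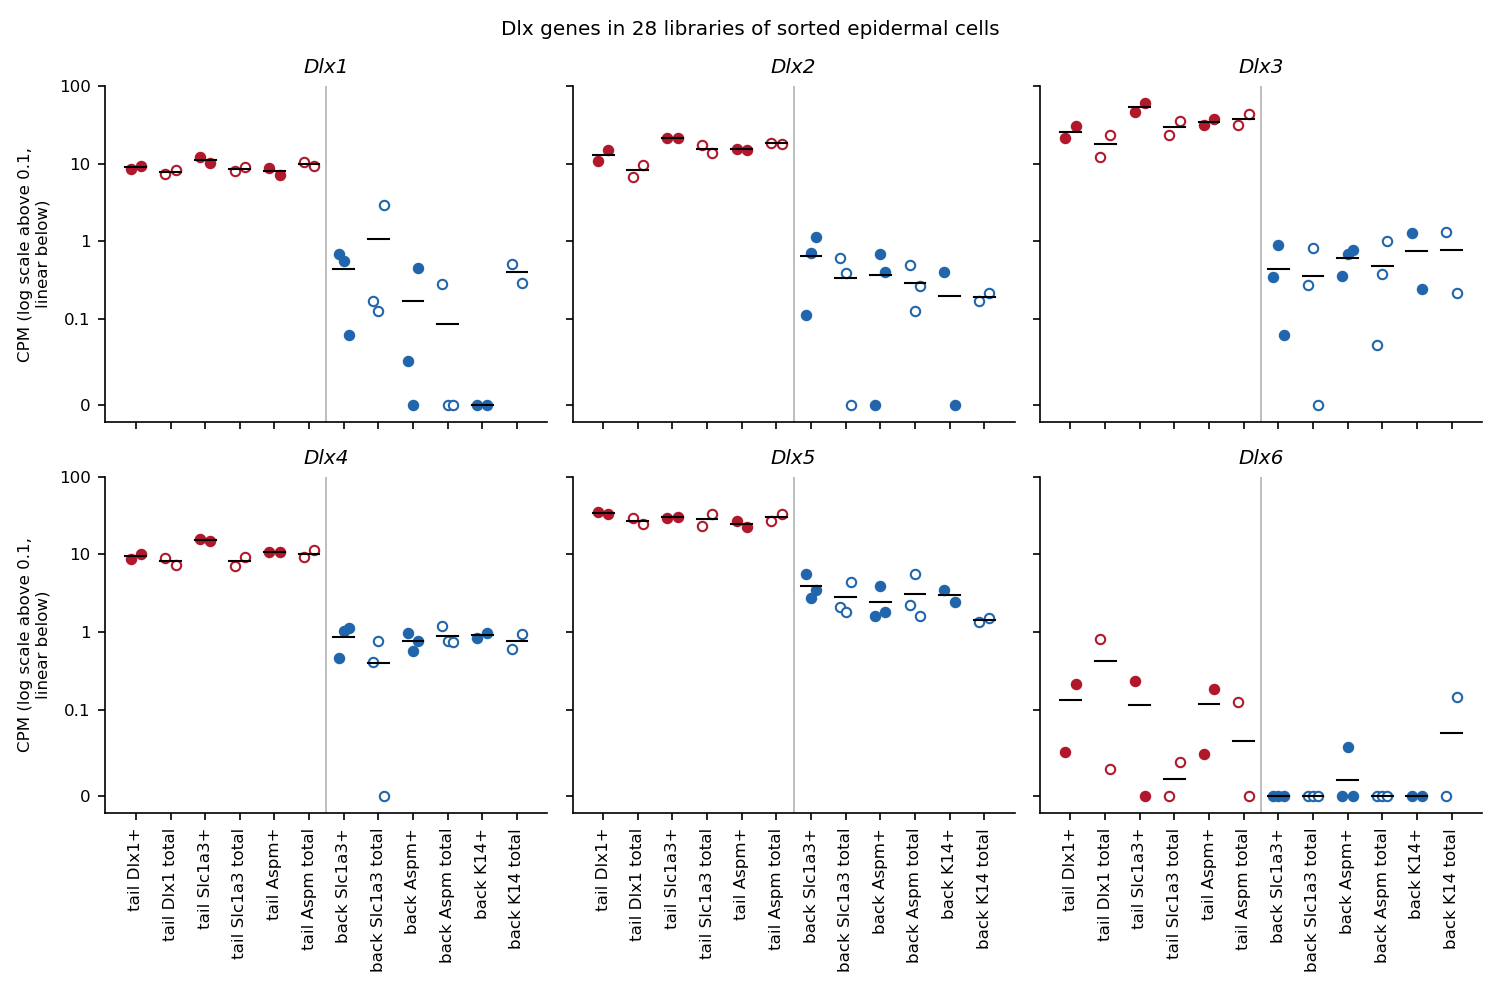
CPM of each Dlx gene (y axis, log scale above 0.1 and linear below) in the 12 groups (x axis), with tail groups in red and back groups in blue. Points are libraries, filled for labelled cells and open for total IFE, and bars are group means of 2 or 3 libraries. Dlx1 to Dlx5 are higher in every tail library than in every back library, and Dlx6 is below 1 CPM throughout.

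Per kb of exon, the order in tail skin was Dlx5 (median 13.0 CPM per kb), Dlx3 (11.9), Dlx2 (5.35), Dlx4 (2.98), Dlx1 (1.64) and Dlx6 (0.0211). Dlx5 and Dlx3 did not differ beyond their spread, with ranges of 10 to 15.6 and 4.74 to 23.3 CPM per kb and Dlx5 above Dlx3 in 7 of 12 libraries. Dlx3 was above Dlx2 in 12 of 12 tail libraries, Dlx2 above Dlx4 in 11, and Dlx4 above Dlx1 in 12, although the ranges of each of these neighbours overlapped. In back skin Dlx5 led at a median of 1.03 CPM per kb and was above the next, Dlx4 (0.235), in 16 of 16 libraries. The levels of Dlx4, Dlx3 (0.142), Dlx2 (0.113) and Dlx1 (0.0278) in back skin lay within each other's ranges.

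The summed level of the 6 genes was 24.5 to 50.7 CPM per kb in tail libraries and 1.16 to 2.94 CPM per kb in back libraries. Of that sum Dlx3 held a median share of 34.5% in tail and 9.12% in back libraries, while Dlx5 held 35.0% in tail and 62.9% in back libraries. Dlx4 held 8.52% in tail and 14.5% in back libraries. The ranges of these shares overlapped between the sites. They were 19.3% to 46.0% in tail against 0% to 35.1% in back libraries for Dlx3, and 26.7% to 52.8% against 41.4% to 85.2% for Dlx5. For Dlx4 they were 7.56% to 11.2% against 0% to 25.5%. The make-up of the family thus differed between the sites only by medians, and the back shares rest on few counts.

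The site was tested in total IFE, Slc1a3+ cells and Aspm+ cells. No library is in more than 1 of these sets, but labelled and total libraries of the same line and number are paired, so the sets are not separate replications. The test was edgeR's quasi-likelihood test on 1 fit of all 28 libraries, with p adjusted by Benjamini-Hochberg over 17493 genes and a threshold of 0.05. In tail over back total IFE (Slc1a3 and Aspm lines), 5 of 5 tested members rose. Of all genes 46.2% passed in either direction and 22.5% rose, so a rise alone is common here, and the members' sizes are given beside it. Their median log2 change was 4.88, against -0.03 over all genes.

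In that comparison Dlx3 rose by a log2 change of 6.18 (SE 0.5, adjusted p = 7.85e-10) and Dlx2 by 5.52 (SE 0.517, adjusted p = 7.07e-09). Dlx1 rose by 4.88 (SE 0.725, adjusted p = 8.96e-06), Dlx4 by 3.81 (SE 0.335, adjusted p = 2.43e-09) and Dlx5 by 3.37 (SE 0.303, adjusted p = 3.55e-09). The log2 change of Dlx1 was 6.07 without back Slc1a3 total replicate 4 and 7.06 without back Aspm total replicate 1, and that of Dlx3 was 6.83 without back Aspm total replicate 4. Dlx5, with the highest back level, had the lowest log2 change, and the differences between members were not tested.

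Slc1a3 names a glutamate transporter gene, and Slc1a3+ cells gave the same calls, with 5 of 5 tested members risen in tail over back cells, where 40.6% of genes passed and 19.0% rose. The log2 changes were 6.78 for Dlx3 (SE 0.717), 5.09 for Dlx2 (SE 0.707), 4.57 for Dlx1 (SE 0.968), 4.13 for Dlx4 (SE 0.472) and 2.93 for Dlx5 (SE 0.418), with edgeR adjusted p of at most 0.000635. Dlx3 had 7.83 without back Slc1a3+ replicate 2. Aspm names a spindle protein of dividing cells, and in Aspm+ cells 5 of 5 also rose, where 27.2% of genes passed and 12.7% rose. There the log2 changes were 5.80 for Dlx3 (SE 0.674), 5.70 for Dlx1 (SE 1.065), 5.25 for Dlx2 (SE 0.71), 3.84 for Dlx4 (SE 0.464) and 3.30 for Dlx5 (SE 0.422), with adjusted p of at most 0.000317. Dlx1 had 8.35 without back Aspm+ replicate 4 and 4.93 without replicate 2, and Dlx2 had 6.19 without replicate 2. With all libraries in the fit Dlx3 had the highest change in each of the 3 sets and Dlx5 the lowest, but Dlx1 was higher than Dlx3 in total IFE and Aspm+ cells when 1 of the back libraries named here was left out.

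Whether labelling changed with site was tested as tail minus back of labelled over total. For the Slc1a3 line 0 of 5 members passed (0.0915% of all genes did), with log2 differences from -0.51 for Dlx5 to 1.20 for Dlx1. For the Aspm line 0 of 5 passed (0% of genes), with differences from -0.69 for Dlx1 to 0.36 for Dlx4, and 0 of these 10 tests had an unadjusted p under 0.05. The value for Dlx1 in the Slc1a3 line was -1.20 without back Slc1a3 total replicate 4.

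The opposite-strand genes split. Dlx4os, antisense to Dlx4, ran from 2.67 to 6.40 CPM in tail libraries, against 0.128 to 2.39 CPM in back libraries, and rose in total IFE by a log2 change of 2.68 (SE 0.419, edgeR adjusted p = 1.41e-05), in Slc1a3+ cells by 2.50 and in Aspm+ cells by 2.45. Dlx1as, a long transcript across Dlx1 on the other strand, ran from 0.0689 to 2.18 CPM in tail libraries, against 0 to 1.77 CPM in back libraries. Its log2 changes were 0.35 in total IFE (SE 0.69, adjusted p = 0.706), -1.15 in Slc1a3+ cells and 0.32 in Aspm+ cells, and none passed. Dlx1as thus had counts in back skin where Dlx1 was at or near 0, although the 2 genes share 335 bases of exon. The span of Dlx1as also overlaps that of Metap1d on the other strand, which had 14.4 to 48.4 CPM in back libraries. Whether reads of Metap1d entered the counts of Dlx1as was not tested.

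Dlx6os1, also known as Evf2, a long RNA transcribed across the Dlx5 and Dlx6 enhancer region, had counts in 9 of 12 tail libraries, up to 0.772 CPM, and 1 count in 1 of 16 back libraries. It was too low to be tested. Dlx6os2 had 7 counts, all in tail Aspm total replicate 2.

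No tested neighbouring gene reached the change of its pair. Of 15 protein-coding genes within 200 kb, 12 were tested, and in tail over back total IFE 4 rose and 3 fell, near the 46.2% of all genes that passed, with a median log2 change of 0.48 against -0.03 over all genes. Metap1d, a mitochondrial aminopeptidase gene 2.9 kb from Dlx1, had a log2 change of -0.29 (edgeR adjusted p = 0.157). Slc25a12, a mitochondrial carrier, rose by 0.94 and the integrin gene Itga6 fell by 0.71 on the log2 scale at the ends of the Dlx1 and Dlx2 window. Near Dlx3 and Dlx4, Samd14 rose by 2.11, Kat7 by 0.51 and the integrin gene Itga3 by 0.45, while Fam117a fell by 1.54 and Ppp1r9b fell by 0.75. The only tested flanking gene near Dlx5 and Dlx6, Sdhaf3, had 0.55 (adjusted p = 0.0957).

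**Figure D2:**
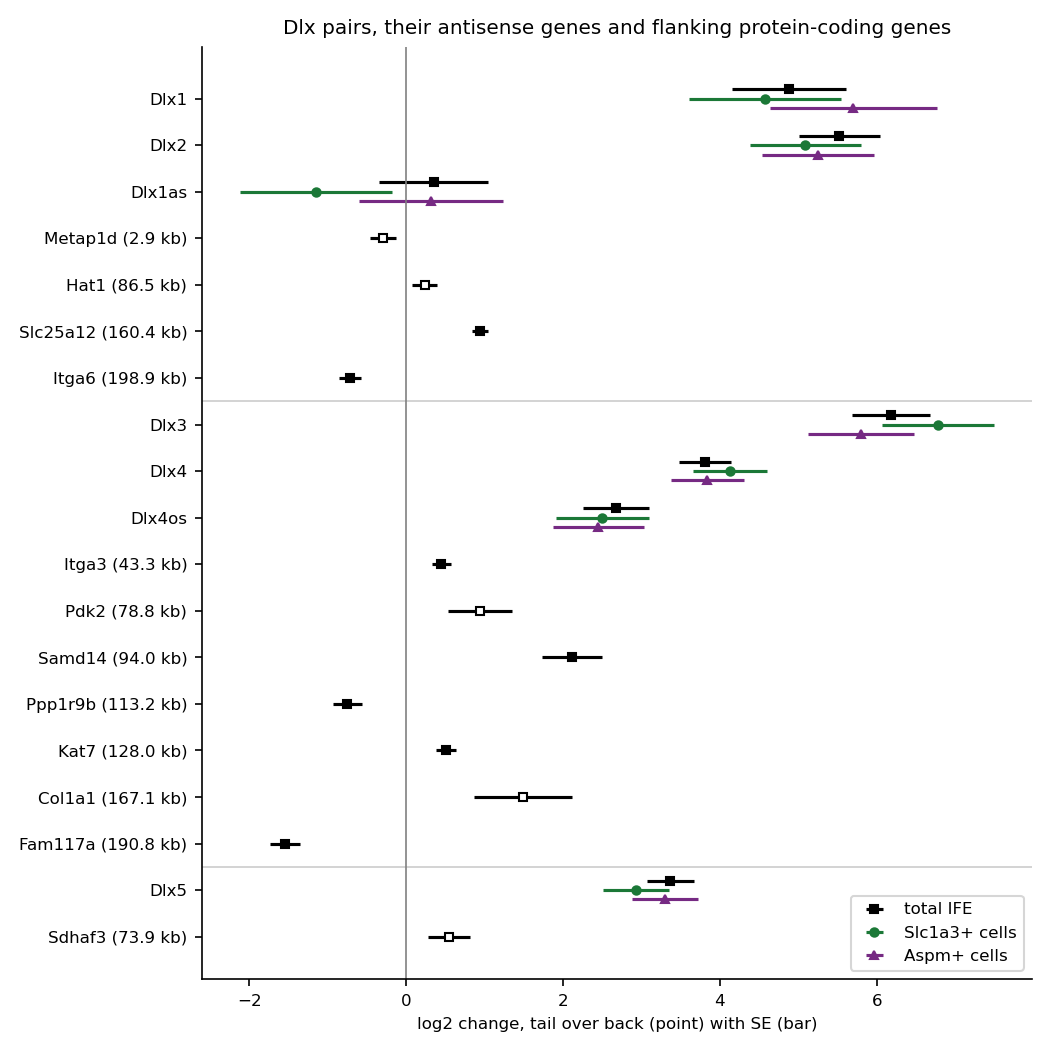
Log2 change in tail over back (x axis, points with SE bars) for the members, their tested antisense genes and the tested protein-coding genes within 200 kb, with distance from the pair in kb. Black squares are total IFE, green circles Slc1a3+ cells and purple triangles Aspm+ cells. Open squares are flanking genes that did not pass, and none of the Dlx1as points passed. The members lie between 2.93 and 6.78, and the flanking genes between -1.54 and 2.11.

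Within tail skin the first question was whether cells labelled through Dlx1 held more Dlx1. The libraries answer this only in part. Total IFE is not stated to exclude the labelled cells, and any such overlap would make a difference smaller. The label was set by tamoxifen before the skin was collected, so it need not mark cells with Dlx1 at collection. These limits also hold for labelled over total cells in the other lines. Dlx1 had 8.54 and 9.34 CPM in Dlx1+ cells, against 7.28 and 8.31 CPM in the total IFE of that line. The Dlx1+ libraries were just above the total libraries, with a log2 change of 0.20 (SE 0.918, edgeR adjusted p = 1). Slc1a3+ cells, which are not marked through Dlx1, had 12.1 and 10.3 CPM of Dlx1, the highest mean of the 6 tail groups. The groups overlapped, with up to 10.4 CPM in the tail Aspm total. Dlx1+ over Slc1a3+ cells did not pass for Dlx1 (log2 change -0.33, edgeR adjusted p = 0.899).

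The other members in Dlx1+ over total cells had log2 changes of 0.64 for Dlx2, 0.53 for Dlx3, 0.34 for Dlx5 and 0.23 for Dlx4. For Dlx2 the libraries held 10.9 and 14.8 CPM in Dlx1+ cells, against 6.82 and 9.69 CPM in their total, without overlap. Dlx5 held 35.4 and 32.9 CPM in Dlx1+ cells, against 29.2 and 24.7 CPM in their total, also without overlap, where 12.7% of all genes were higher in this way. None of the 5 passed, and 0% of all genes did by edgeR, with 33 genes called by DESeq2 and 81 by edgeR with the replicate block. None of the members was among the calls of either. With only tail libraries in the fit Dlx2 had 0.65 (SE 0.23, edgeR adjusted p = 0.694), and none of the 5 passed, against 48 of all genes. Hair follicle markers (Sox9, Lhx2, Cd34, Lgr5, Krt75, Krt17 and Krt79) summed to 183 and 249 CPM in the same Dlx1+ libraries and 499 and 840 CPM in their total, and their part in these values was not tested.

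In the tail Slc1a3 line, Dlx3 had 46.9 and 60.8 CPM in Slc1a3+ cells, against 23.4 and 35.5 CPM in their total. Dlx4 had 15.7 and 14.8 CPM in Slc1a3+ cells, against 7.16 and 9.32 CPM in their total. Dlx1, Dlx2, Dlx3 and Dlx4 were higher in every Slc1a3+ library than in every total library, as were 15.4% of all genes, and Dlx5 overlapped. Hair follicle markers summed to 408 and 475 CPM in Slc1a3+ cells and 773 and 776 CPM in their total, and their part was not tested. Their log2 changes ran from 0.09 for Dlx5 to 0.88 for Dlx4, and 0 of 5 passed, against 0.514% of all genes (90 genes, or 261 with the replicate block). With only tail libraries in the fit Dlx4 had 0.89 (SE 0.242, adjusted p = 0.115).

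In the tail Aspm line the values leaned the other way. Dlx1 had 8.74 and 7.15 CPM in Aspm+ cells, against 10.4 and 9.34 CPM in their total, and Dlx2 had 15.3 and 15.2 CPM in Aspm+ cells, against 18.4 and 18.1 CPM in their total. Dlx1, Dlx2 and Dlx5 were lower in every Aspm+ library than in every total library, as were 18.9% of all genes, and 0 of 5 passed (0.00572% of all genes, which is 1 gene, or 6 with the replicate block), with log2 changes from -0.31 to 0.09. The differences between lines in labelled over total were tested as well, by edgeR over all genes. Over 3 pairs of lines at each site, 0 of 30 tests of members passed. An unadjusted p under 0.05 came from 2 of the 15 back tests, both of the K14 line, and 0 of the 15 tail tests. With only tail libraries in the fit it came from 5 of 15 tail tests, and 0 passed (adjusted p = 1).

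Among labelled cells of the tail, Dlx3 had 21.1 and 30.5 CPM in Dlx1+ cells, against 46.9 and 60.8 CPM in Slc1a3+ cells. Dlx2 had 10.9 and 14.8 CPM in Dlx1+ cells, against 21.6 and 21.2 CPM in Slc1a3+ cells. Neither overlapped, and 25.2% of all genes were lower in this way. In the fit of all libraries the log2 changes of Dlx1+ over Slc1a3+ cells were -1.06 for Dlx3 (SE 0.612, adjusted p = 0.333) and -0.74 for Dlx2 (SE 0.659, adjusted p = 0.57), and 0 of 5 members passed, against 5.47% of all genes. That share is 957 genes, and 1875 passed when the spread was fitted without back Slc1a3 total replicate 4. Fewer than 957 passed when 1 library of the compared groups was left out, which leaves 1 library in a group.

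That fit holds 1 spread per gene for both sites, and the back libraries, near 0 for these genes, enter it. With only the 12 tail libraries in the fit, an alternative chosen after seeing the data, Dlx3 fell with a log2 change of -1.07 (SE 0.288, edgeR adjusted p = 0.0257) and Dlx2 with -0.75 (SE 0.228, adjusted p = 0.0421), so 2 of 5 members passed. Of 15815 genes 13.6% passed in that fit. The same libraries differed in marker sums, with 216 CPM of hair follicle markers in Dlx1+ cells against 441 in Slc1a3+ cells, and 81400 against 116000 CPM of basal keratinocyte markers. Melanocyte markers summed to 11 CPM in Dlx1+ cells against 26.8 in Slc1a3+ cells, fibroblast markers to 23.0 against 38.8 and Langerhans cell markers to 5.47 against 20.0. Their part in these values was not tested. Dlx4 had -0.69 (adjusted p = 0.0674), Dlx1 -0.34 and Dlx5 0.17.

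The same genes were then compared between the total IFE of the Dlx1 line and the totals of the other lines. Dlx2 had 6.82 and 9.69 CPM in the Dlx1 line's total, against 17.3 and 13.7 CPM in the Slc1a3 line's total and 18.4 and 18.1 CPM in the Aspm line's total. Dlx3 had 12.3 and 23.4 CPM in the Dlx1 line's total, against 23.4 and 35.5 CPM in the Slc1a3 line's and 31.1 and 44.1 CPM in the Aspm line's. In the fit of all libraries the log2 changes were -1.02 for Dlx2 (adjusted p = 0.518) and -0.89 for Dlx3 (adjusted p = 0.539), and 0 of 5 passed, against 0.126% of all genes. With only tail libraries Dlx2 passed at -1.03 (SE 0.206, adjusted p = 0.0193), Dlx3 had -0.91 (adjusted p = 0.0807), and 1.75% of genes passed. Line and labelled cell type therefore cannot be told apart for the lower Dlx2 of Dlx1+ against Slc1a3+ cells.

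**Figure D3:**
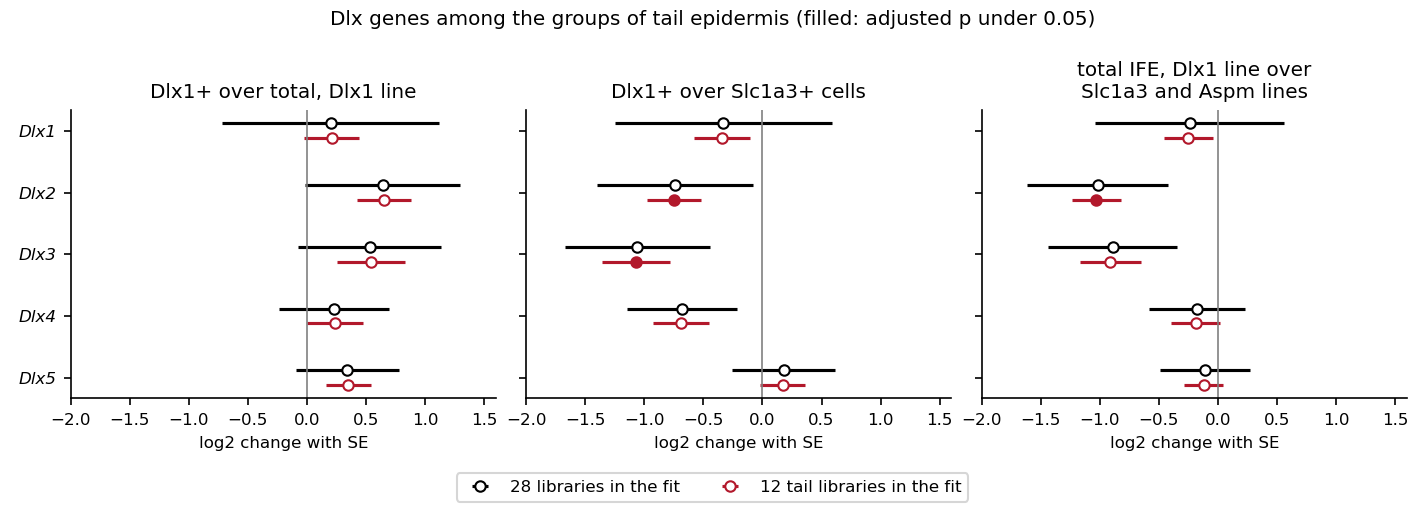
Log2 changes of Dlx1 to Dlx5 (points with SE bars) in 3 comparisons within tail skin, with all 28 libraries in the fit (black) and with the 12 tail libraries only (red). Filled points passed at an adjusted p under 0.05. The estimates are alike in both fits, and the SE is smaller with tail libraries only.

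Dlx1+ over Aspm+ tail cells gave log2 changes from -0.41 for Dlx3 to 0.46 for Dlx5, and 0 of 5 members passed, against 0.0915% of all genes. Slc1a3+ over Aspm+ tail cells gave 0.28 for Dlx5 to 0.65 for Dlx3, and 0 of 5 passed, against 0.492% of genes. The family sum was 48.2 ± 3.5 CPM per kb in tail Slc1a3+ cells and 33.3 ± 6.13 in their total, 34.3 ± 0.145 in Aspm+ cells and 39.1 ± 5.68 in their total, and 34.1 ± 3.19 in Dlx1+ cells and 25.8 ± 1.85 in their total (SD, n = 2 each).

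Within tail skin the members did not all vary together. Over the 12 tail libraries, which come from 6 groups and share depth and scaling, log2 CPM of Dlx3 correlated with Dlx2 (Pearson r = 0.872, Spearman rho = 0.741) and with Dlx4 (r = 0.745, rho = 0.881), and Dlx1 with Dlx2 (r = 0.697, rho = 0.72). Dlx5 did not follow them, with r = 0.124 for Dlx3, -0.033 for Dlx2, 0.308 for Dlx4 and 0.381 for Dlx1. Without the 2 libraries farthest from the median of the first-named gene of each pair, r was 0.727 for Dlx2 with Dlx3, 0.845 for Dlx3 with Dlx4 and 0.818 for Dlx1 with Dlx2. These are descriptions of the libraries, with no test.

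**Figure D4:**
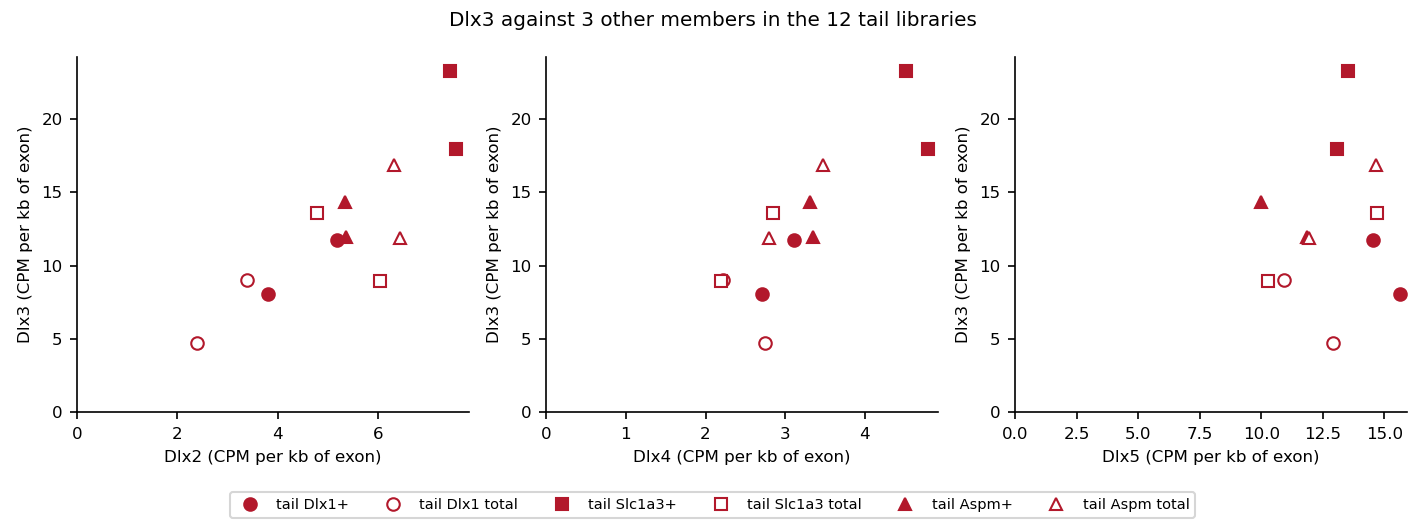
Level of Dlx3 (y axis) against Dlx2, Dlx4 and Dlx5 (x axes), all in CPM per kb of exon, in the 12 tail libraries. Markers give the line, filled for labelled cells and open for total IFE. Dlx3 is higher where Dlx2 and Dlx4 are higher, with the Slc1a3+ libraries highest, and shows no such slope along Dlx5.

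In back skin the members were low and the counts few. In Slc1a3+ over total cells 0 of 5 members passed, against 0.109% of all genes (19 genes, or 62 with the replicate block), with log2 changes from -0.81 for Dlx1 to 0.89 for Dlx4. Dlx1 had 0.685, 0.56 and 0.0811 CPM in Slc1a3+ cells, against 0.172, 0.128 and 2.94 CPM in their total. The last value is from the library that stands apart, which held 0 counts of Dlx2, Dlx3 and Dlx4, and without it the log2 change of Dlx1 turned to 1.59 (adjusted p = 1). In Aspm+ over total cells 0 of 5 passed (0% of genes by edgeR, with 2 called by DESeq2), with log2 changes from -0.28 to 0.38. In Slc1a3+ over Aspm+ back cells 0 of 5 passed, against 0.160% of genes.

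K14+ cells of back skin had 0 counts of Dlx1 in both libraries, against 15 and 4 counts in their total, or 0.507 and 0.29 CPM. With 3 counts per library as the floor (0.135 CPM on average), the total's mean of 0.398 CPM was 2.96-fold the floor. The ratio was 5.91 in replicate 1 alone and 1.58 in replicate 4 alone. The floor leaves out the counting error of the 15 and 4 counts, so these ratios are not firm lower bounds. Dlx1 had an unadjusted p of 0.015 and an adjusted p of 1 by edgeR. Dlx1 was called there only when genes of low count were not filtered out (adjusted p = 0.00816). Dlx5 had 3.49 and 2.45 CPM in K14+ cells, against 1.35 and 1.52 CPM in their total, a log2 change of 1.07 (unadjusted p = 0.047, adjusted p = 1). None of the 5 members passed, against 0.00572% of all genes (1 gene, or 18 with the replicate block).

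Dlx1as had 1.77, 1.49 and 1.46 CPM in back Slc1a3+ cells, against 0.755, 0.769 and 0 CPM in their total. In the back Aspm line it had 0.611, 1.65 and 0.815 CPM in Aspm+ cells, against 0.211, 0.51 and 0.393 CPM in their total. The 0 in the Slc1a3 line's total is from the library that stands apart. In the back K14 line the libraries overlapped, with 0.0857 and 0.551 CPM in K14+ cells, against 0.0676 and 0.217 CPM in their total. In the Slc1a3 and Aspm lines the labelled libraries were above the total libraries, with log2 changes of 1.49 and 1.5. Neither passed (edgeR adjusted p = 0.87 and 1). How many of all genes were higher in this way in back skin was not counted, so this separation may be common.

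The genes around the Dlx factors were read from 4 lists, in tail over back total IFE with the same test, where 46.2% of all genes passed and 22.5% rose. Of 10 homeobox partners and related factors 9 were tested, 7 rose and 1 fell, with a median log2 change of 0.96. Hoxc13, a posterior Hox gene needed for hair and nail keratins, had 54.9 to 126 CPM in tail libraries, against 0 to 1.79 CPM in back libraries, and rose by 6.99 (SE 0.368, adjusted p = 4.94e-13). Msx2 and Msx1, homeobox factors that bind the same core as Dlx proteins, rose by 1.89 and 5.81, and Maged1, which binds Dlx and Msx proteins, by 0.98. Msx1 was low at both sites, with 1.38 to 4.04 CPM in tail libraries, against 0 to 0.191 CPM in back libraries. Tfap2b, an AP-2 factor, fell by 0.93. Of the same list 5 rose and 1 fell in tail over back Slc1a3+ cells, where 40.6% of all genes passed, and likewise 5 and 1 in Aspm+ cells, where 27.2% passed.

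The list drawn up as upstream of Dlx genes holds 21 genes of p63, BMP and Wnt signalling, including targets and inhibitors of these pathways. Of them 10 rose and 6 fell, with a median of 0.64, against -0.03 over all genes. The ligand Bmp4 had 5.10 to 22.0 CPM in tail libraries, against 66.9 to 105 CPM in back libraries, and fell by 2.84 on the log2 scale. The ligand Bmp7 rose by 0.99, the BMP target and inhibitor Smad6 rose by 3.19, and the Wnt target Axin2 fell by 1.39. Trp63, the gene of p63, fell by 0.51. The other BMP targets of the list, named after their values were seen, also rose: Id1 by 1.74, Id2 by 1.88, Id3 by 1.16 and Smad7 by 1.5. The receptor Bmpr2 fell by 1.01 and the receptor Bmpr1b fell by 2.44 on the log2 scale.

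Of 16 genes linked to Dlx3 in differentiation 6 rose and 6 fell, with a median of 0.12. Gata3, a transcription factor of barrier formation, had 64.9 to 101 CPM in tail libraries, against 443 to 721 CPM in back libraries, and fell by 2.7 on the log2 scale. The desmosomal cadherin Dsg1a fell by 1.44, while the desmocollin Dsc1 rose by 2.52 and the transglutaminase Tgm1 rose by 4.5. Tgm1 was low at both sites, with 0.977 to 6.25 CPM in tail libraries, against 0 to 1.15 CPM in back libraries. Spinous and granular markers (Krt1, Krt10, Lor, Ivl and Flg) summed to 5760 to 11000 CPM in tail and 6840 to 14400 CPM in back libraries. Of 24 other positional regulators of skin only 8 had enough counts, of which 1 rose and 2 fell. Hoxc10 had 0 counts in the 6 back total libraries of the comparison and averaged 1.84 CPM in the tail totals, at least 10.6-fold higher with 3 counts per library as the floor (0.174 CPM). Meis2 fell by 1.52 and Tbx3 fell by 0.85 on the log2 scale.

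**Figure D5:**
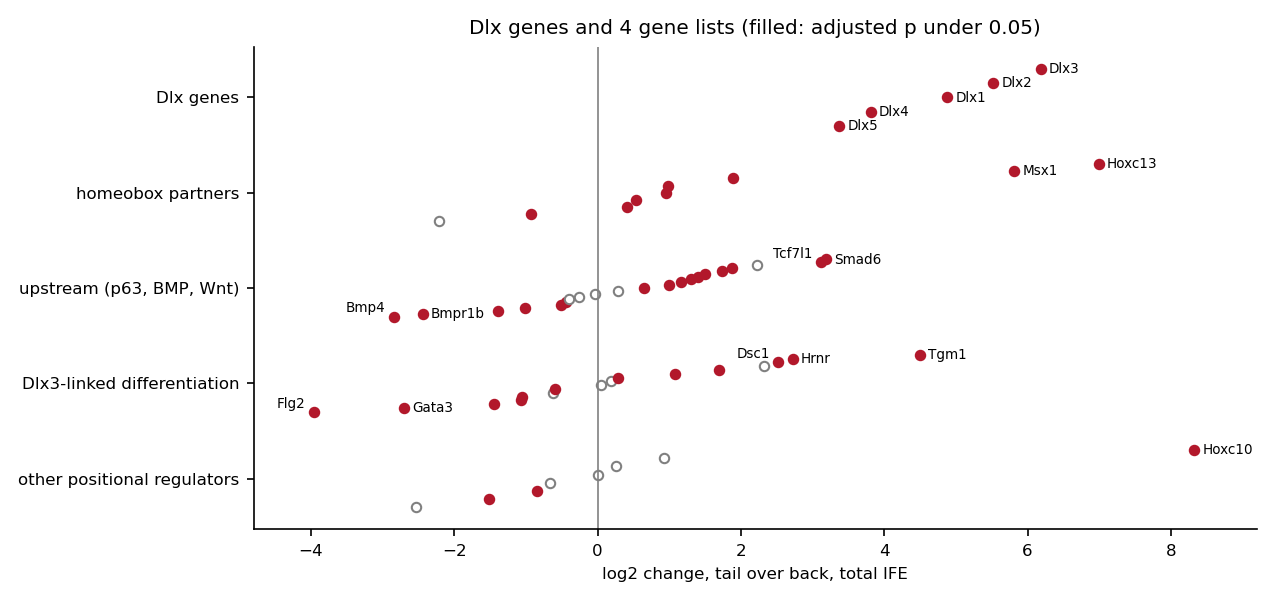
Log2 change in tail over back total IFE (x axis) for the 5 tested Dlx genes and the tested genes of 4 lists, 1 point per gene. Filled points passed at an adjusted p under 0.05, and those past a log2 size of 2.2 are named. The Dlx genes all lie at 3.37 or above, where the lists hold Hoxc13, Msx1, Hoxc10 and Tgm1. The point of Hoxc10 is fitted against libraries at 0 and depends on the prior count. Msx1 and Tgm1 are also low in back libraries, with medians of 0 and 0.364 CPM.

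Marker levels of some cell types other than IFE cells also differed by site. The calls here are for tail over back total IFE, where 46.2% of all genes passed and 22.5% rose. Hair follicle markers summed to 183 to 840 CPM in tail libraries and 147 to 453 CPM in back libraries, and 7 of 7 rose. The tail Dlx1+ libraries had 183 and 249 CPM of follicle markers and 21.1 and 30.5 CPM of Dlx3. Fibroblast markers (Col1a1, Col1a2, Col3a1, Pdgfra, Lum and Dcn) summed to 21.9 to 39.2 CPM in tail and 0.968 to 14.7 CPM in back libraries, and 2 of 5 tested rose. Melanocyte markers (Dct, Pmel, Mlana, Tyrp1 and Tyr) summed to 7.42 to 28.7 CPM in tail and 3.55 to 16.0 CPM in back libraries, and 5 of 5 rose. Langerhans cell markers (Cd207, Cd74 and H2-Ab1) summed to 2.04 to 26.2 CPM in tail and 12.6 to 154 CPM in back libraries, and 2 of 3 fell. Markers of Merkel cells (Krt20 at 0 in back libraries), T cells and endothelium summed to under 10 CPM in every library. Of those tested, 2 of 2 fell for T cells, 1 of 4 rose and 1 fell for Merkel cells, and 0 of 3 passed for endothelium. The part of all these cells in the Dlx levels was not tested.

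Among 14025 other tested genes with a standard symbol, the profiles most like each member over log2 CPM of the 28 libraries were Cers4 for Dlx1 (r = 0.956), Ces2g for Dlx2 (r = 0.963), Tmem266 for Dlx3 (r = 0.977), Adh6b for Dlx4 (r = 0.975) and Thbd for Dlx5 (r = 0.977). Other close profiles were Mrc2 for Dlx1, Mfsd2a and Tmem117 for Dlx2, Slc35g1 and Selenbp1 for Dlx3, Csta1 and Orai2 for Dlx4, and Abcc3 and Them5 for Dlx5. Such r is mostly the difference between sites. After each site's mean was removed, r was 0.674, 0.629, 0.712, 0.776 and 0.647 for the first gene of each member.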

How the data were processed

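RNA of cells sorted from tail and back interfollicular epidermis was isolated with TRIzol, enriched for poly(A) and made into libraries without strand marking, per the labels' protocols. The submitters' processing notes name Trim Galore 0.6.0, cutadapt, FastQC, STAR 2.7.0e, DESeq2 1.26.0 and the build GRCm38. The counting program and its strand setting are not given in the sources used here. The deposited values are raw counts per Ensembl gene, 1 file per library, and all 55536 IDs matched GENCODE M21. Totals of 7738262 to 37670589 counts set the precision of low genes, and the floor of 3 counts covers counting error only.

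From the counts, CPM scaled by TMM and a fit of all 28 libraries with 1 mean per group (16 residual degrees of freedom) were computed with edgeR 4.0.16 in R 4.3.3. Its filter at a minimum count of 10 left 17493 genes. The quasi-likelihood test was adjusted by Benjamini-Hochberg at 0.05, and the SE is the log2 change over the square root of F. Of the 6 members 5 passed the filter, also on the libraries of either site alone, and Dlx6 did not. DESeq2 1.42.0, other scaling, no filter, a replicate block, leaving out each of the 28 libraries and fits of 1 site were alternatives, and the script was tested on simulated data. The members and gene lists were chosen with earlier results of these data known. Named genes were the members, their opposite-strand genes, protein-coding genes within 200 kb, up to 4 genes of lowest p per list and the 3 most alike by r, of which 1 is not reported here. Tfap2b, Trp63, Id1, Id2, Id3, Smad7, Bmpr2 and Bmpr1b were named after their values were seen, and the tests between lines were also added then. Groups came from the labels. Labelled and total libraries of the same line, site and number deviated together from their group means (r from 0.18 to 0.689 in 14 pairs over 10376 genes) and were taken as paired in that block. In groups of 2 libraries the deviations mirror each other and both pairs give the same r, so the 14 values are not all separate.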

Additional observations from a re-analysis of the deposited data

How the results depend on the processing

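All 15 site results of the 5 tested members kept their direction and call in every alternative run. Log2 changes in total IFE ranged from 4.55 to 7.06 for Dlx1, 5.37 to 5.83 for Dlx2, 5.87 to 6.83 for Dlx3, 3.65 to 4.15 for Dlx4 and 3.21 to 3.70 for Dlx5. Leaving out 1 library changed no count of called members. In other settings 3 counts grew from 0, to 1 in back K14+ over total cells with no filter on low counts, to 2 in tail Dlx1+ over Slc1a3+ cells and to 1 in the tail totals of the Dlx1 line over the others, both with only tail libraries in the fit. With the replicate block no call of a Dlx gene changed. For tail over back, same-numbered libraries shared only a number (r from -0.059 to 0.321 in 8 pairs), and the block gave Dlx1 5.70 in total IFE and 6.34 in Aspm+ cells.

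Signs turned only where no test passed. For tail minus back in the Aspm line, Dlx5 was 0.00 with RLE scaling, 0.02 with DESeq2 and 0.01 with the replicate block. In the Slc1a3 line Dlx4 was 0.02 with DESeq2 and 0.03 with the block, and Dlx2 was 0.06 with the block. The cause was not tested. Leaving out 1 library at a time gave these ranges of log2 change. In tail Slc1a3+ over total cells Dlx5 ran from -0.15 to 0.37. In tail Aspm+ over total cells Dlx3 ran from -0.36 to 0.15 and Dlx4 from -0.06 to 0.26. In back Slc1a3+ over total cells Dlx1 ran from -1.47 to 1.59 and Dlx3 from -0.90 to 1.21. In back Aspm+ over total cells Dlx1 ran from -2.27 to 4.74, Dlx2 from -0.61 to 0.94, Dlx3 from -0.25 to 1.66, Dlx4 from -0.49 to 0.01 and Dlx5 from -0.81 to 0.39. In back K14+ over total cells Dlx2 ran from -5.04 to 1.08, Dlx3 from -1.83 to 1.93 and Dlx4 from -0.07 to 0.54. In back Slc1a3+ over Aspm+ cells Dlx3 ran from -1.38 to 0.05 and Dlx4 from -0.01 to 0.51. In the tail totals Dlx5 ran from -0.25 to 0.02. For tail minus back in the Slc1a3 line Dlx1 ran from -1.20 to 1.87, Dlx2 from -0.74 to 0.43, Dlx3 from -0.35 to 1.77 and Dlx4 from -0.68 to 0.32, and in the Aspm line Dlx1 from -5.05 to 1.96, Dlx2 from -1.19 to 0.36, Dlx3 from -1.79 to 0.12 and Dlx5 from -0.67 to 0.53. Values fitted where a group is at 0 depend on the prior count.

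Counts over all genes moved more. By edgeR and by DESeq2 the genes called were 0 and 33 in tail Dlx1+ over total, 90 and 195 in tail Slc1a3+ over total, 19 and 39 in back Slc1a3+ over total, 957 and 1805 in tail Dlx1+ over Slc1a3+, 16 and 87 in tail Dlx1+ over Aspm+, 86 and 294 in tail Slc1a3+ over Aspm+, 28 and 158 in back Slc1a3+ over Aspm+, and 22 and 291 in the tail totals. Leaving out 1 library of the compared groups leaves 1 library where it is a tail library. It lowered the counts of tail Dlx1+ over Slc1a3+, tail Slc1a3+ over total, tail Slc1a3+ over Aspm+ and tail Dlx1+ over Aspm+. That of the tail totals moved either way. The counts of tail over back were lower than the 7104 in Slc1a3+ cells and 4766 in Aspm+ cells with all libraries. In back skin the counts were 9 to 19 in Slc1a3+ over total, against 19, and 9 to 37 in Slc1a3+ over Aspm+, against 28. With the spread fitted without back Slc1a3 total replicate 4, counts were higher, at 1875 in tail Dlx1+ over Slc1a3+ and 134 in tail Slc1a3+ over total. That fit gave 8225 in tail over back Slc1a3+ cells and 5851 in Aspm+ cells. Few counts limit Dlx6 and the back levels.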
